A study of Gallus gallus with 34 samples.

Results

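The genes of cell division and DNA replication were followed in the retina, retinal pigment epithelium (RPE) and choroid of chicks that wore a lens over the right eye. The group was a list of 35 gene symbols, and a gene belonged to it when the symbol column of the count table held one of them. Of the 35 symbols, 34 were found among the 13067 genes of the table. CDC6, which helps to load the replicative helicase onto DNA, was not found among the symbols and was not analysed here.

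Male Leghorn/New Hampshire chicks wore a lens of 10 D, negative (Negative Lens) or positive (Positive Lens), or No Lens, for 1, 2 or 3 days and were then 6, 7 or 8 days post-hatch. The 34 chicks fell into 9 groups, with 3 chicks in the No Lens groups of days 1 and 2 and 4 chicks in each other group. A negative lens places the image behind the retina and the eye lengthens, and a positive lens places it in front and growth of the eye slows. The No Lens values came from separate birds, not from the other eye of a lens-wearing bird. The study picked the birds to be sequenced for strong and cohesive changes in the eye, so they are not a random sample of lens-wearing chicks. The 3 tissues were collected together from the posterior eyecup. In such bulk tissue fewer cells of a type and less RNA per cell cannot be told apart.

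Before a cell divides, it copies its DNA once and then separates the copies. The MCM proteins and CDC45 unwind the DNA, PCNA holds the polymerase on it and ribonucleotide reductase supplies the nucleotides. Cyclins with CDK1 then drive the cell into mitosis, condensins and TOP2A compact and untangle the chromosomes, and kinetochores, motors and a checkpoint pull them apart. After hatching most of the chick retina is made of neurons that no longer divide, while dividing cells remain at the retinal margin and among the vessel, stromal and blood-derived cells of the choroid. How much of the margin the posterior eyecup tissue held is not given.

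The total count per chick ran from 1592763 to 13765634, with a median of 5014243. The lowest total belonged to Positive Lens chick 32 of day 3. Reads of the cell division and replication genes numbered 565 to 4529 per chick, or 0.0302% to 0.0413% of the total. RPE65 and KDR, markers of RPE and endothelium, were present in every chick, at 502 to 1072 CPM (reads of a gene scaled to the total count of the chick after TMM adjustment) for RPE65 and 240 to 305 CPM for KDR. COL1A1, ACTA2, PECAM1, VIM and PAX6 were not found among the symbols and were not used here.

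Most of these genes had few reads. The median count per chick was under 20 for 12 of the 34 genes and 100 or more for 4 of them, namely MCM6, RRM1, PCNA and MCM4. After a filter on low counts, 30 genes were tested in every fit, and CDC20 and PLK1 only in the fit of all 34 chicks. CDC20 activates the complex that starts chromosome separation, and PLK1 is a mitotic kinase. PRC1 and AURKA passed the filter in no fit. PRC1, which bundles microtubules at the midzone of the spindle, had a median of 3 reads and no read in 6 chicks, where a count of 0 allows up to 0.456 to 1.13 CPM. Its group means ran from 0.303 to 0.949 CPM. It also had the widest spread between chicks of a group, with an SD of 0.85 on the log2 CPM scale. AURKA, a kinase of the spindle poles, had 0 to 15 reads.

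No gene of the 34 passed the test of a difference with lens wear or with time by the edgeR quasi-likelihood test with Benjamini-Hochberg adjustment over all genes tested. There were 0 calls at an adjusted p below 0.05 among 732 tests of a gene in 24 comparisons, where 0.079% of such tests over all genes were calls. At an unadjusted p below 0.05 the count was 50 of 732, or 6.83%, beside 6.1% over all genes. Of the 32 genes tested, 22 reached that level in some comparison and 10 in none. The smallest adjusted p of any of the genes was 0.207. DESeq2 called none of them, and limma-voom with quality weights called CENPF in 1 of the 24 comparisons.

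**Figure D1:**
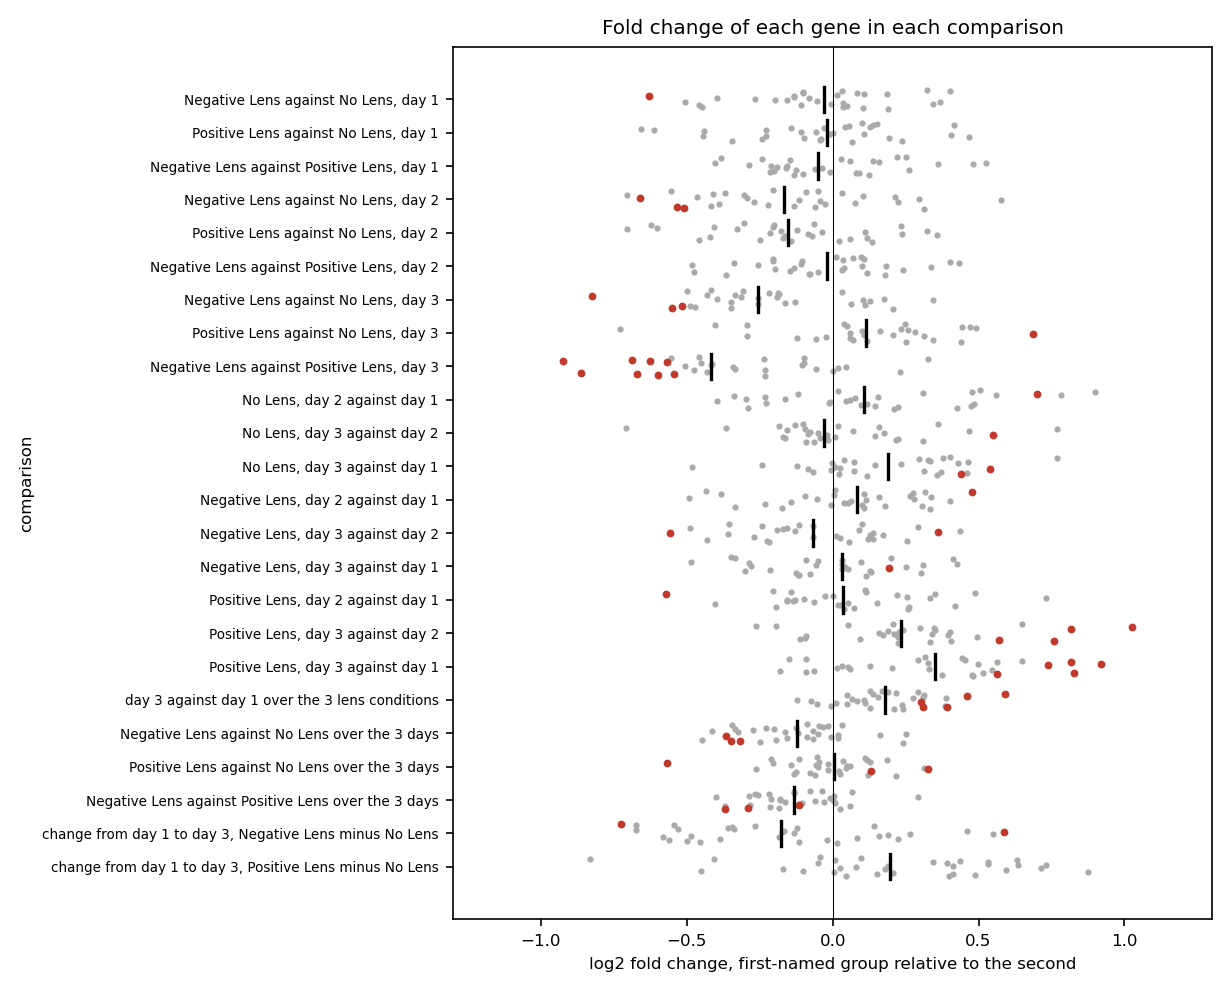
Log2 fold change of each cell division and replication gene (x axis) in each of 24 comparisons (y axis), from edgeR. Each point is 1 gene, red where the unadjusted p was below 0.05, and the black bar is the median. The bar lies at −0.42 for Negative Lens against Positive Lens at day 3 and at 0.35 for Positive Lens at day 3 against day 1.

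**Figure D2:**
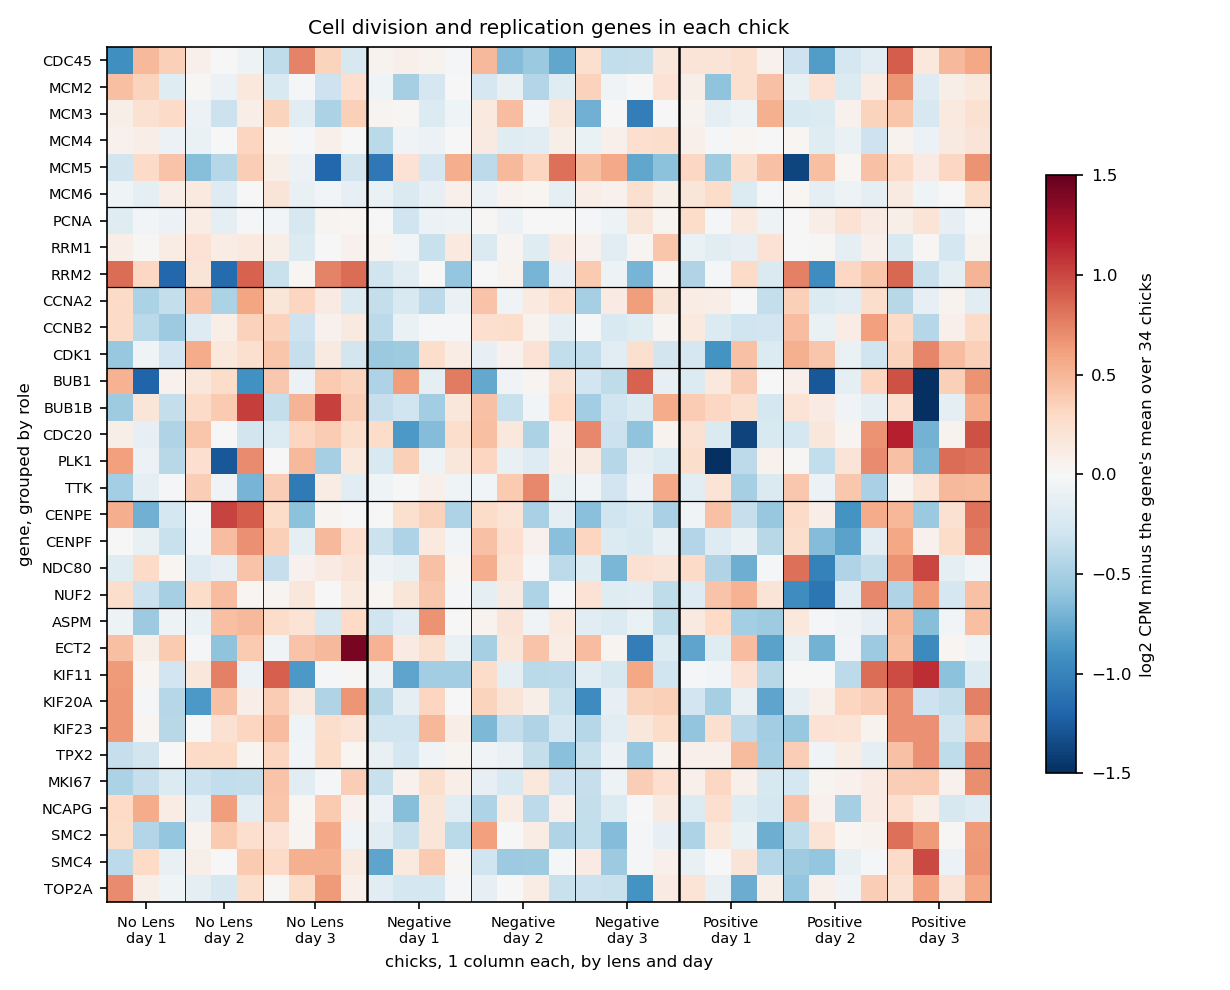
Expression of the 32 genes that passed the filter in the fit of all chicks (y axis, grouped by role) in each of 34 chicks (x axis, by lens and day). Color is log2 CPM minus the mean of that gene over the 34 chicks, capped at 1.5. The MCM6, MCM4 and PCNA rows are pale across all groups, and the highest values of SMC2 and SMC4 (18.5 and 21.6 CPM) lie in the Positive Lens chicks of day 3.

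The 4 genes with the most reads, all of replication, had the smallest SD between chicks of a group on the log2 CPM scale, which includes counting noise. PCNA, the sliding clamp of the polymerase, lay between 33.2 and 49.7 CPM in all 34 chicks and had the smallest spread of the list, with an SD of 0.12 on that scale. Its group means ran from 37.9 to 44.5 CPM. MCM6 lay between 43.3 and 60.9 CPM and MCM4 between 23.7 and 39.5 CPM, and both are subunits of the helicase. RRM1, the large subunit of ribonucleotide reductase, ran from 36.9 to 62.6 CPM, and the variance of its counts within groups was 4.1 times that of counting alone, above the median of 3.56 for all genes. Its small subunit RRM2 had 3 to 54 reads and ran from 0.976 to 5.13 CPM.

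For PCNA the intervals were narrow. Of its 24 comparisons, the 2 with an unadjusted p below 0.05 by edgeR are given here, and neither was called. Between Negative Lens and Positive Lens over the 3 days its log2 fold change was −0.11 (SE 0.05, 95% interval −0.22 to −0.01, adjusted p = 0.776 by edgeR). Between Positive Lens and No Lens over the 3 days it was 0.13 (SE 0.06, interval 0.02 to 0.25, adjusted p = 0.753 by edgeR). Both intervals lay far inside a 2-fold change, which is 1 on the log2 scale.

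CDC45, which joins the MCM ring to make the active helicase, had fewer reads, with a median of 16 per chick, and varied more. Its CPM in the Positive Lens chicks was 3.45, 3.47, 3.58 and 3.14 at day 1, then 2.34, 1.53, 2.43 and 2.64 at day 2, and 5.90, 3.37, 4.32 and 4.64 at day 3. The day 2 values lay below those of both other days with no overlap. Groups did not overlap for 1 of 30 genes between days 1 and 2, beside 1.38% of all genes. Between days 2 and 3 it was also 1 of 30, beside 3.04% of all genes. The log2 fold change from day 2 to day 3 was 1.02 (SE 0.26, interval 0.47 to 1.58), the largest of the 30 genes in that comparison, and the adjusted p was 0.797 by edgeR. Of all 11432 genes tested, 0 were called there by edgeR, 13 by DESeq2 and 10 by limma-voom.

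MCM5, another helicase subunit, varied beyond counting noise. The variance of its counts within groups was 6.24 times that of counting alone, where the median was 1.85 for these genes and 3.56 for all genes. At day 3 its CPM was 9.19, 8.10, 3.64 and 7.07 in the No Lens chicks and 10.6, 9.45, 10.8 and 14 in the Positive Lens chicks. These groups did not overlap, as was so for 11.6% of all genes in that comparison. The log2 fold change was 0.69 (SE 0.32, interval 0.01 to 1.36, adjusted p = 0.273 by edgeR). MCM5 and KIF11 were singled out after their values were seen.

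The remaining genes are given by their range. MCM2 and MCM3, of the same helicase, ran from 8.03 to 19.7 CPM and from 4.13 to 13 CPM over the 34 chicks. CCNA2, the cyclin of S phase and G2, ran from 6.20 to 13.9 CPM, and ASPM, a protein of the spindle poles, from 4.05 to 10.5 CPM. The checkpoint kinases TTK and BUB1 and the checkpoint protein BUB1B ran from 2.32 to 8.79, from 0.675 to 5.56 and from 0 to 4.88 CPM. BUB1B had no read in Positive Lens chick 32 of day 3, the shallowest library, where a count of 0 allows up to 2.02 CPM. NUF2 and NDC80, which bind microtubules at the kinetochore, ran from 1.83 to 7.25 and from 0.917 to 4.72 CPM.

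KIF11, the motor that pushes the spindle poles apart, had the largest excess over counting noise, with a ratio of 11.3. In the Positive Lens chicks of day 3 its CPM was 28.5, 31.0, 9.23 and 12.3, so that chicks 26 and 32 lay far above chicks 33 and 36. The No Lens chicks of day 3 had 26.8, 7.72, 13.9 and 14.4 CPM. Both groups were spread over the same range. Of the 32 genes, 29 had a ratio below the median of all genes and 17 a ratio below 2. Genes with few reads have low ratios whatever their biology, since counting noise is then large.

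**Figure D3:**
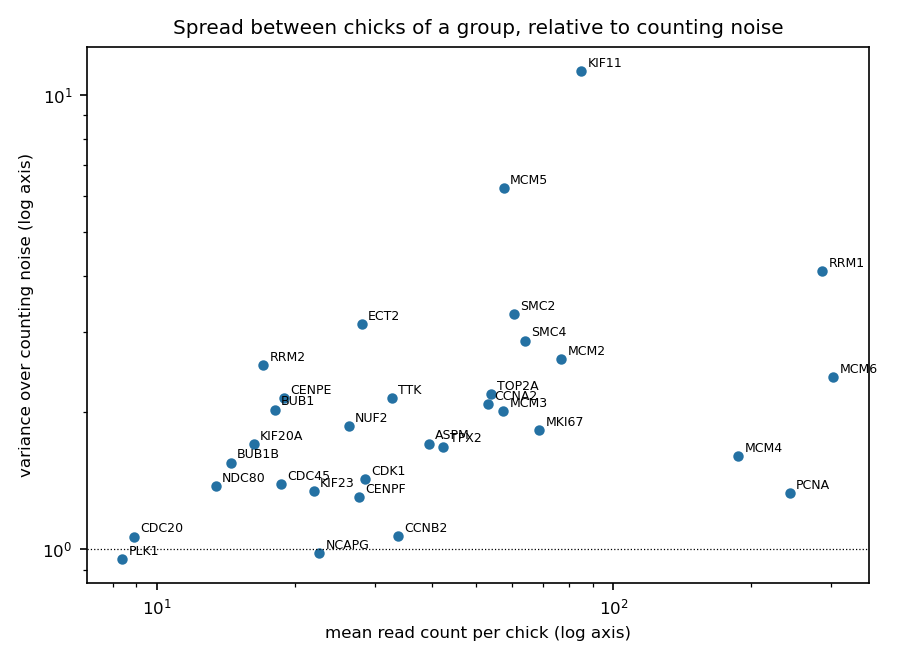
Variance of counts between chicks of a group divided by the variance from counting alone (y axis, log scale) against the mean read count per chick (x axis, log scale) for 32 genes. The dotted line marks counting noise alone. KIF11 at 11.3 and MCM5 at 6.24 stand above the rest, and NCAPG and PLK1 lie just under 1.

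The widest separation was between Negative Lens and Positive Lens at day 3. Of 30 genes, 25 had a fold change below 0 and 5 above 0, where 47.8% of all genes lay above 0, and the median log2 fold change was −0.42, beside −0.01 for all genes. With an unadjusted p below 0.05, 8 genes were lower with the negative lens and 0 higher, where 6.58% of all genes reached that level and 4.03% were lower. At an adjusted p below 0.05, 0 of the 30 were called by edgeR, DESeq2 or limma-voom, where 0.0348% of all genes were called by edgeR. Of all 11501 genes, DESeq2 called 51 and limma-voom 3.

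By role, the genes of chromosome structure had a median of −0.54, the kinetochore genes −0.52 and the spindle and cytokinesis genes −0.43. The cyclins and CDK1 had a median of −0.24, the checkpoint genes −0.23 and the origin and helicase genes −0.22. The replication fork and nucleotide genes had a median of 0.00. Of the 9 replication genes 5 lay below 0, and of the 21 others 20 did. Whether the roles differ was not tested.

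SMC2, a core subunit of condensin, which compacts chromosomes, had 7.87, 6.45, 10.1 and 9.39 CPM in the Negative Lens chicks of day 3. The Positive Lens chicks had 18.5, 16.2, 10.4 and 16.2 CPM, and the No Lens chicks had 11.9, 10.6, 15.4 and 9.92 CPM. The lens groups did not overlap, though Positive Lens chick 33 at 10.4 lay close to the highest Negative Lens chick. The log2 fold change of Negative Lens against Positive Lens was −0.86 (SE 0.22, interval −1.33 to −0.39, adjusted p = 0.227 by edgeR). Without Positive Lens chick 33 it was −1.01 and SMC2 was called. That fit called 84 of all genes, where the fit with all chicks called 4. Groups did not overlap for 3 of 30 genes, all lower with the negative lens, beside 3.72% of all genes in either direction.

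TOP2A, the topoisomerase that untangles the copied chromosomes, was the second of the 3. Its CPM was 6.92, 6.82, 4.51 and 9.49 with the negative lens and 10.3, 13.5, 10.0 and 13.2 with the positive lens. The fold change was −0.67 (SE 0.23, interval −1.15 to −0.19, adjusted p = 0.540 by edgeR). The third was CDK1, the kinase that drives entry into mitosis, with 3.58, 4.22, 5.63 and 3.84 CPM against 6.06, 8.10, 6.68 and 6.14 CPM. Its fold change was −0.63 (SE 0.25, adjusted p = 0.663 by edgeR).

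In the other genes at that level the groups overlapped. SMC4, the partner of SMC2, had 11.7, 7.20, 10.5 and 11.3 CPM with the negative lens and 13.1, 21.6, 10.0 and 16.9 with the positive lens. TPX2, which activates AURKA on the spindle, had 5.49, 6.58, 4.51 and 7.25 against 9.60, 11.5, 5.30 and 11.8 CPM. In both genes the overlap came from Positive Lens chick 33. CENPE, the kinetochore motor that aligns chromosomes, had the largest fold change, −0.92 (SE 0.31, adjusted p = 0.509 by edgeR), from 7 to 20 reads per chick with the negative lens and 3 to 46 with the positive lens. CENPF, another kinetochore protein, had a fold change of −0.57, and CDC45 had −0.69.

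**Figure D4:**
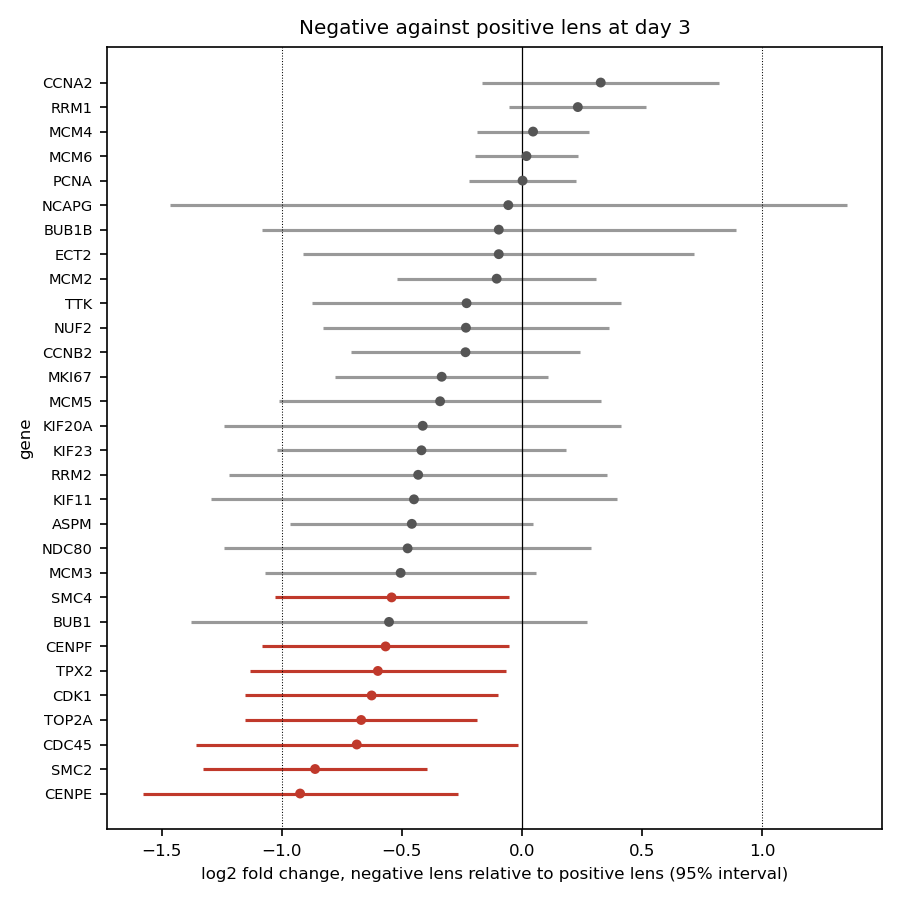
Log2 fold change of Negative Lens relative to Positive Lens at day 3 (x axis) with its 95% interval for each of 30 genes (y axis), from edgeR with 4 chicks per group. Red marks an unadjusted p below 0.05, and dotted lines mark 2-fold. The interval of 18 of the 30 genes reaches a 2-fold change in one direction, and no gene had an adjusted p below 0.05.

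This separation rested in part on single birds. Leaving out 1 chick at a time gave 3 to 8 genes at an unadjusted p below 0.05. The count was 3 without Positive Lens chick 36 and 5 without chick 26. The summed CPM of the 34 genes was 408 in chick 26, 381 in chick 32, 333 in chick 33 and 414 in chick 36, beside 314 to 364 in the Negative Lens chicks and 320 to 380 in the No Lens chicks of day 3. Chicks 36 and 26 had the highest sums of all 34 birds. The sum is weighted to the genes with the most reads. The mean log2 CPM of the 32 genes tested was 3.17 in chicks 26 and 36, 2.71 in chick 32 and 2.80 in chick 33. It was 2.57 to 2.79 in the Negative Lens chicks and 2.75 to 2.93 in the No Lens chicks of day 3.

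Some markers of other cells were also high in these birds. Of the fibroblast list 6 of 7 markers were in the table, and of the leukocyte list 8 of 13. The summed CPM of the 6 fibroblast markers was 1357 in Positive Lens chick 26 and 916 in chick 36, and 716 to 1357 in that group. It was 540 to 777 in the Negative Lens group and 559 to 743 in the No Lens group of day 3. Against No Lens 1 of the 6, COL1A2, was called higher with the positive lens by edgeR, beside 0.878% of all genes called in that comparison. The summed CPM of the 8 leukocyte markers was 114 to 144 with the positive lens and 106 to 112 with the negative lens, which do not overlap, and 100.4 to 119 with No Lens. Chick 36 had 144 and chick 26 had 132. CD8A, which marks cytotoxic T cells, had no read in 9 of the 34 chicks. Of the red blood cell list 4 of 14 markers were in the table, and they summed to 8.40 to 16.2 CPM, 5.63 to 10.5 CPM and 2.02 to 8.82 CPM in the same order. Chick 26 had the 16.2 and chick 36 the 8.40. Smooth muscle markers (4 genes) summed to 615 to 921 CPM with the positive lens, 733 to 1062 with the negative lens and 713 to 1062 with No Lens. Endothelial markers (8 genes) summed to 651 to 801, 591 to 799 and 588 to 784 CPM. Those 2 lists overlapped between all 3 groups. So did the retinal neuron markers (7 genes), at 2592 to 3109, 2686 to 3066 and 2764 to 3011 CPM. RBPMS, on that list with 2 entries, had 27.3 to 35.2 CPM with the positive lens and 17.1 to 22.0 with No Lens in 1 entry. In the other entry it had 127 to 213 and 111 to 131 CPM. With the negative lens the 2 entries had 17.2 to 27.8 and 108 to 150 CPM. Retinal progenitor markers (4 genes) summed to 328 to 435 CPM with the positive lens. They summed to 258 to 393 with the negative lens and 281 to 355 with No Lens. Mueller glia markers (5 genes) summed to 3240 to 3457, 3388 to 4040 and 3432 to 3673 CPM in that order. The groups overlapped for both lists, and for the RPE, photoreceptor and melanocyte lists. The part of these cells in the values of the cell division genes was not tested.

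Against No Lens at day 3 the lens groups lay on opposite sides, and both comparisons share the No Lens chicks. For Negative Lens 22 of 30 genes had a fold change below 0, with a median of −0.26, where 51.4% of all genes lay above 0. For Positive Lens 23 of 30 lay above 0, with a median of 0.11, where 48.5% of all genes did. Leaving out 1 chick moved that median between 0.06, without Positive Lens chick 36, and 0.29, without Positive Lens chick 33. EdgeR called 0 of 30 genes in each, beside 0% and 0.878% of all genes. DESeq2 and limma-voom also called 0 of the 30 in each. Of all 11501 genes they called 7 and 0 for Negative Lens, and 549 and 662 for Positive Lens. The paper's own DESeq2 run reported far fewer genes for the positive lens. At an unadjusted p below 0.05 there were 3 genes for Negative Lens, all lower, and 1 for Positive Lens, MCM5, beside 10.3% and 17.6% of all genes.

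The 3 genes were TOP2A at −0.55 (SE 0.22, adjusted p = 0.436), SMC2 at −0.52 (SE 0.22, adjusted p = 0.451) and ECT2 at −0.83 (SE 0.36, adjusted p = 0.457), all by edgeR. ECT2, which starts the contractile ring of cytokinesis, had 4.04, 5.79, 6.06 and 11.8 CPM with No Lens and 5.96, 4.34, 1.88 and 3.63 with the negative lens. The No Lens chick at 11.8 lay far above the rest. The groups overlapped. The count of 3 genes became 0 without Negative Lens chick 60, 1 without chick 68 and 2 without 1 No Lens chick.

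At day 1 the median fold change was −0.03 for Negative Lens against No Lens, −0.02 for Positive Lens against No Lens and −0.05 for Negative Lens against Positive Lens. EdgeR called 0 of 30 genes in each, beside 0%, 0% and 0.0262% of all genes, and DESeq2 and limma-voom called 0. For Negative Lens against No Lens DESeq2 gave an adjusted p for 25 of the 30. Unadjusted p-values below 0.05 numbered 1, 0 and 0, beside 3.18%, 3.87% and 3.8% of all genes. The 1 gene was KIF11 at −0.63 (SE 0.26, adjusted p = 1 by edgeR). The 9 replication genes were all below 0 with the negative lens at day 1, with a median of −0.16 against No Lens and −0.19 against the positive lens. Of the 21 others 14 and 13 lay above 0, as did 51.4% and 51.6% of all genes. Whether these groups of genes differ was not tested, and both comparisons share the Negative Lens chicks.

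At day 2 both lens groups had medians below 0 against the same 3 No Lens chicks, −0.17 for Negative Lens and −0.15 for Positive Lens, and −0.02 against each other. EdgeR called 0 of 30 genes in each, beside 0%, 0% and 0.0526% of all genes, and so did DESeq2 and limma-voom. Before adjustment 3, 0 and 0 genes had a p below 0.05, beside 4.98%, 2.51% and 2.78% of all genes. The 3 were KIF23, SMC4 and TPX2, all lower with the negative lens. KIF23, a motor of the cleavage furrow, had a fold change of −0.66 (SE 0.27, adjusted p = 0.974 by edgeR).

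MKI67, the Ki-67 coat protein of mitotic chromosomes and a common marker of dividing cells, was low and even in the No Lens chicks of day 2, at 8.99, 8.65 and 8.73 CPM. The Negative Lens chicks of that day had 10.3, 9.61, 12.6 and 9.01 CPM, and the Positive Lens chicks had 9.35, 11.6, 11.8 and 12.4 CPM. Neither lens group overlapped the No Lens group. The lowest Negative Lens chick, at 9.01 CPM, lay just above the highest No Lens chick, at 8.99 CPM. MKI67 had no unadjusted p below 0.05 by edgeR against No Lens for either lens on that day. Groups did not overlap for 5 of 30 genes in each of these comparisons, beside 7.17% and 3.78% of all genes, and MKI67 was the only 1 of the 5 that was higher with the lens. SMC4 was among the lower ones in both. The No Lens chicks of day 1 had 8.04 to 9.76 CPM of MKI67, so a low level was not particular to day 2.

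**Figure D5:**
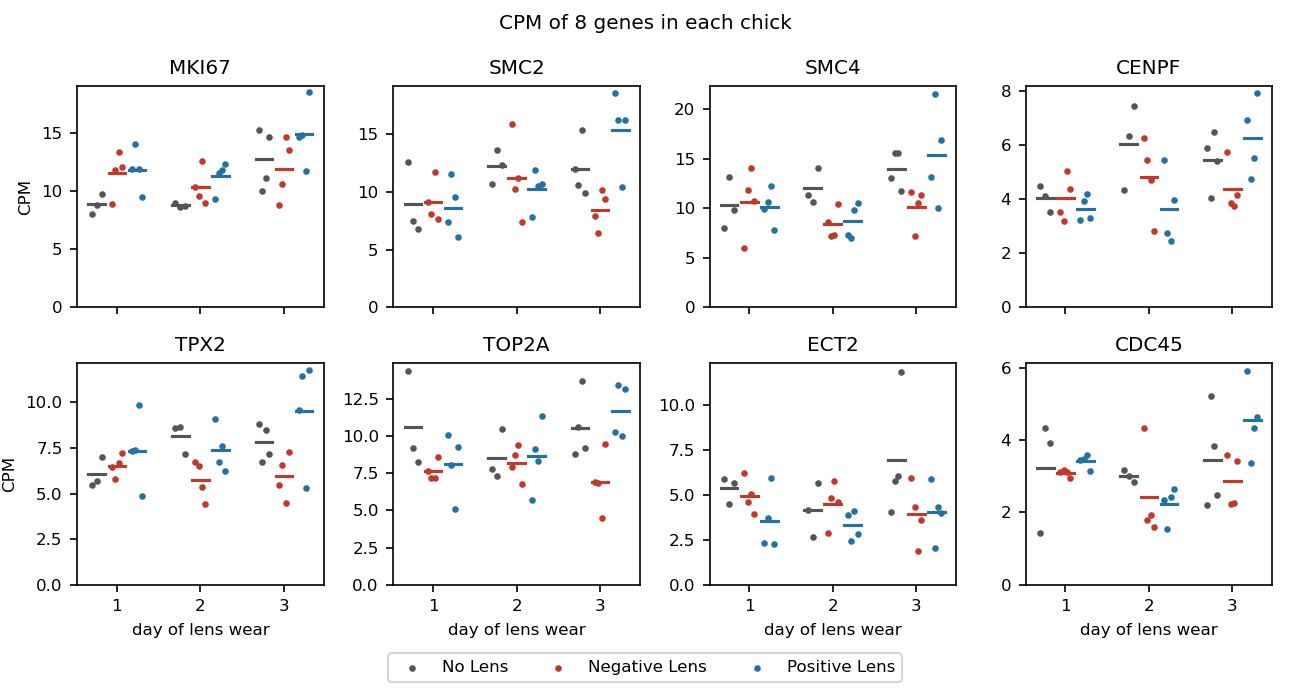
CPM (y axis, from 0) of 8 genes against the day of lens wear (x axis), 1 panel per gene. Points are chicks, bars are group means, and color is the lens. The SMC2 panel shows the Positive Lens chicks of day 3 at 10.4 to 18.5 CPM above the Negative Lens chicks at 6.45 to 10.1 CPM, and the MKI67 panel shows the No Lens chicks of day 2 between 8.65 and 8.99 CPM.

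The comparisons over time within each lens group asked whether these genes move as the eye grows from day 1 to day 3. In the No Lens chicks 23 of 30 genes had a fold change above 0 from day 1 to day 3, with a median of 0.19, where 49% of all genes lay above 0. That median was 0.08 without chick 77 of day 1 and 0.31 without chick 73 of day 1. EdgeR, DESeq2 and limma-voom called 0 of 30, beside 0.00873% of all genes by edgeR. The unadjusted p was below 0.05 for MKI67 and SMC4, beside 12.5% of all genes. MKI67 had 8.04, 8.84 and 9.76 CPM at day 1 and 15.3, 10.0, 11.1 and 14.7 CPM at day 3, with no overlap. Groups did not overlap for 1 of 30 genes, beside 10.6% of all genes. The fold change of MKI67 was 0.54 (SE 0.19, interval 0.12 to 0.95, adjusted p = 0.321 by edgeR). DESeq2 gave an adjusted p for only 4 of the 30 genes in that comparison.

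In the Positive Lens chicks the median from day 1 to day 3 was 0.35, beside 0.01 for all genes, and 25 of 30 genes lay above 0, where 52.8% of all genes did. EdgeR, DESeq2 and limma-voom called 0 of 30, beside 0% of all genes by edgeR. The unadjusted p was below 0.05 for 5 genes, all higher at day 3, where 5.96% of all genes reached that level and 3.01% were higher. They were KIF20A at 0.92, SMC2 at 0.83, CENPF at 0.82, KIF23 at 0.74 and SMC4 at 0.56, with adjusted p-values from 0.671 to 0.812 by edgeR. KIF20A is a motor of cytokinesis.

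CENPF had 3.22, 3.91, 4.17 and 3.29 CPM in the Positive Lens chicks of day 1, 5.46, 2.75, 2.43 and 3.95 at day 2 and 6.91, 4.72, 5.50 and 7.90 at day 3. Days 1 and 3 did not overlap, and CENPF was the 1 of 30 genes for which this was so, beside 4.67% of all genes. From day 2 to day 3 its fold change was 0.82 (SE 0.29, adjusted p = 1 by edgeR), and limma-voom called it there. The count of 5 genes became 1 without chick 36 of day 3, 2 without chick 11 of day 1, 3 without chick 26 of day 3 and 8 without chick 2 of day 1 or chick 33 of day 3.

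In the Negative Lens chicks the median from day 1 to day 3 was 0.03, with 16 of 30 genes above 0, where 47.4% of all genes were. It turned below 0 in some settings, at −0.16 without chick 69 of day 3, −0.07 without chick 39 of day 1 and −0.11 by limma-voom. EdgeR, DESeq2 and limma-voom called 0 of 30, beside 0% of all genes by edgeR. The 1 gene at an unadjusted p below 0.05, beside 3.82% of all genes, was MCM6, at 0.19 (SE 0.09, interval 0.00 to 0.38, adjusted p = 0.999 by edgeR). Whether the change with time differed between lenses was tested directly. The change from day 1 to day 3 with a lens minus that with No Lens gave 0 of 32 calls for either lens by all 3 tools, beside 0% of all genes by edgeR. It gave 2 and 0 genes at an unadjusted p below 0.05 for the negative and the positive lens, beside 4.24% and 7.98% of all genes. In the same order the medians were −0.18 and 0.20. For the negative lens 22 of 32 genes lay below 0, and for the positive lens 25 of 32 lay above 0. Of all genes 53.6% and 55.3% lay above 0. For each lens the interval of 21 of 32 genes reached a 2-fold change, so 0 calls cannot show equal changes.

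The steps of 1 day gave 0 of 30 calls by edgeR in each lens group, beside 0% to 0.0264% of all genes. From day 1 to day 2 the count at an unadjusted p below 0.05 was 1 gene in each group, beside 5%, 5.57% and 1.42% of all genes with No Lens, Negative Lens and Positive Lens. The genes were CDK1 with No Lens (0.70), CCNA2 with Negative Lens (0.48) and CDC45 with Positive Lens (−0.57). From day 2 to day 3 it was 1, 2 and 4 genes, beside 4.9%, 5.09% and 4.09%. They were MKI67 with No Lens (0.55), MCM2 (0.36) and MCM3 (−0.56) with Negative Lens, and CDC45, CENPF, SMC4 and SMC2 with Positive Lens, all higher at day 3 in that group. For these steps too DESeq2 called none of the genes, but from day 2 to day 3 with No Lens it gave an adjusted p for only 4 of the 30. Limma-voom called CENPF with Positive Lens from day 2 to day 3, where it called 10 of all genes. It called no other of these genes in these steps.

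Averages over days or lenses rest on more birds and gave narrower intervals. From day 1 to day 3 over the 3 lens conditions, 28 of 32 genes lay above 0, with a median of 0.18, beside 0.00 for all genes, of which 49.7% lay above 0. The 95% interval of 31 of the 32 genes lay within a 2-fold change. EdgeR and limma-voom called 0 of 32, beside 0.194% of all genes by edgeR, and DESeq2 called 0 of the 30 for which it gave an adjusted p. The 5 genes at an unadjusted p below 0.05 were all higher at day 3, where 10.2% of all genes reached that level and 5.93% were higher.

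Of those 5, CENPF had a fold change of 0.46 (SE 0.15, interval 0.15 to 0.77, adjusted p = 0.207), MKI67 of 0.30 (SE 0.10, adjusted p = 0.243) and SMC2 of 0.39 (SE 0.14, adjusted p = 0.273), all by edgeR. CDC20 had 0.59 and SMC4 had 0.31. CDC20 had 1 to 23 reads per chick. The count of 5 became 3 without No Lens chick 77 of day 1, 8 without Positive Lens chick 33 of day 3 and 9 without No Lens chick 73 of day 1.

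Over the 3 days, Negative Lens against No Lens had a median of −0.12, with 26 of 32 genes below 0, and Negative Lens against Positive Lens had −0.13, also with 26 of 32 below 0. Among all genes 52.5% and 52.8% lay above 0. Positive Lens against No Lens had a median of 0.00. These comparisons share chicks. EdgeR, DESeq2 and limma-voom called 0 of 32 in each, beside 0.177%, 0.396% and 0.0757% of all genes by edgeR, in the same order. At an unadjusted p below 0.05 there were 3 genes in each, beside 7.55%, 5.93% and 6.05% of all genes. Leaving out 1 chick gave 1 to 6 genes in each comparison with the negative lens and 2 to 4 in the other, and the median against No Lens was −0.08 without No Lens chick 73 of day 1.

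PDGFRA, 1 of the 6 fibroblast markers, had lower means with the negative lens and is given because edgeR called it. Its mean was 56.8, 63.8 and 65.5 CPM with the negative lens on days 1, 2 and 3, and 77.2 to 94.7 CPM in the groups with No Lens or the positive lens. Over the 3 days its fold change was −0.45 against the positive lens (SE 0.09, adjusted p = 0.0131 by edgeR), which was called, as were 0.396% of all genes. Against No Lens it was −0.38 (SE 0.09, adjusted p = 0.122 by edgeR), which was not called, beside 0.177% of all genes. The mean of COL1A2, another of the 6, was 203, 190 and 222 CPM with the negative lens on days 1, 2 and 3. With No Lens it was 241, 224 and 193 CPM, and with the positive lens 217, 242 and 359 CPM. The summed CPM of the 6 markers did not follow PDGFRA on every day. Its median was 669, 591 and 643 with the negative lens on days 1, 2 and 3. With No Lens it was 726, 647 and 589, and with the positive lens 579, 652 and 846. The part of PDGFRA in the values of the cell division genes was not tested.

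With the negative lens against No Lens the 3 were TOP2A at −0.35, NCAPG at −0.37 and SMC4 at −0.32, beside 7.55% of all genes at that level. The smallest adjusted p of the 32 genes there was 0.587 by edgeR. All 3 are genes of chromosome structure, and whether that role stood out was not tested. Against the positive lens the 3 were TPX2 at −0.37 (SE 0.13, adjusted p = 0.431 by edgeR), TOP2A at −0.29 and PCNA at −0.11. With the positive lens against No Lens, MKI67 was at 0.33 (SE 0.11, interval 0.11 to 0.55, adjusted p = 0.605 by edgeR), PCNA at 0.13 and ECT2 at −0.57. The 95% intervals of all 32 genes lay within 2-fold in both comparisons with the positive lens, and of 31 in the other.

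A test for any difference among the 9 groups called 0 of 32 genes by edgeR, beside 1% of all genes. At an unadjusted p below 0.05 there were 4, MKI67, SMC2, SMC4 and CENPF, beside 8.48% of all genes. MKI67 had the lowest, with an adjusted p of 0.310. Limma-voom called SMC2 and CENPF in that test, where it called 374 of all 11882 genes. DESeq2 called none of the 32, where it called 236 of all genes.

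Other genes of the same pathways were taken from lists of 53 replication genes, 99 mitosis genes, 30 regulators of G1 and 19 brakes of the cycle, of which 47, 73, 26 and 9 were in the table. Across the 24 comparisons, 3 calls were made among them by edgeR, where 0.079% of such tests over all genes were calls. Of these genes, 136 passed the filter in the fit of all chicks. With about that many tested in each of the 24 comparisons, the 3 calls lay near the share over all genes. HMGB2, a chromatin protein abundant in dividing cells, fell from day 1 to day 3 over the lens conditions, with a log2 fold change of −0.53 (SE 0.09, interval −0.70 to −0.35, adjusted p = 0.0118 by edgeR). Its mean in the No Lens chicks was 87.5 CPM ± 4.13 (SD, n = 3) at day 1 and 57.2 CPM ± 8.18 (SD, n = 4) at day 3. It was called in each of 23 fits that left out 1 chick. It was 1 of 59 mitosis genes tested, and 40 of the 59 lay above 0. Of all genes 0.194% were called in that comparison.

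DNMT1, which copies DNA methylation at the fork, and POLD2, a subunit of DNA polymerase delta, were called higher with the positive lens than with No Lens at day 3. They were 2 of 43 other replication genes tested, and 19 of the 43 lay above 0, where 0.878% of all genes were called and 48.5% lay above 0. POLD2 was at 4.45 to 7.53 CPM with No Lens and 10.9 to 15.5 CPM with the positive lens, with a fold change of 1.28 (SE 0.26, adjusted p = 0.0408 by edgeR). DNMT1 was at 30.3 to 41.9 and 52.9 to 55.4 CPM, with a fold change of 0.59 (SE 0.12, adjusted p = 0.0445 by edgeR). For both genes the No Lens group of day 3 had the lowest mean of the 9 groups. It was 5.29 CPM for POLD2, beside 8.70 to 12.8 CPM in the other groups. For DNMT1 it was 35.2 CPM, beside 39.2 to 53.7 CPM. Single Negative Lens chicks of day 2 reached 17.9 CPM for POLD2 and 64.1 CPM for DNMT1. Leaving out any 1 of the 8 chicks ended the call of DNMT1, with adjusted p-values up to 0.148, and 6 of the 8 ended that of POLD2. In 1 fit of all 34 chicks neither was called, with adjusted p-values of 0.485 and 0.376.

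Within groups the genes did not move closely together. Over 496 pairs of the 32 genes, the median correlation of log2 CPM after group means were removed was 0.06 over 34 chicks, and 63.3% of pairs were above 0, beside −0.01 and 49.1% for pairs of all genes. The closest pairs were CCNB2 with CENPE (r = 0.68) and CCNB2 with CENPF (r = 0.67). CCNB2, a mitotic cyclin, had r = 0.76 with the mean of the other genes, and PCNA had r = 0.13. These points share libraries, and low counts weaken any correlation, so they are given as a description.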

How the data were processed

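Total RNA from the retina, RPE and choroid of the right eye was made into stranded mRNA libraries, 1 per chick. After trimming by CutAdapt and Trimmomatic, the authors mapped the reads to GalGal4 with Tophat2 and Bowtie2, counted uniquely mapping reads per gene with HTSeq, and deposited raw counts. Tool versions and the strand setting of the counting are not given in the sources used here. How the reads of overlapping or antisense genes were counted is therefore not known.

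Counts were tested in R 4.3.3 with edgeR 4.0.16 (filterByExpr with a minimum count of 10 and a minimum total of 15, TMM, quasi-likelihood, Benjamini-Hochberg over all genes tested, threshold 0.05). The lens groups of a day, the days of a lens group, or all 34 chicks were fitted together. The standard error is the fold change divided by the t value that gives the same p. It is unstable where p is near its upper end and the t value near 0. For Negative Lens against Positive Lens at day 2 the largest was 6.98, beside a median of 0.26. Some intervals counted as reaching 2-fold may come from this. CPM used TMM-adjusted total counts, and log2 CPM a prior count of 2. Alternatives were DESeq2 1.42.0, limma-voom (limma 3.58.1), RLE scaling, no filter, other sets of chicks, a threshold of 0.1 and leaving out each chick. The scripts were tested on simulated data.

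The genes and lists were chosen with earlier results of these data known. By the rule for named genes, chick values are plotted for the 8 genes of lowest p in the test among 9 groups, and the range of group means is given for the genes of highest and lowest spread. HMGB2, DNMT1, POLD2, KIF11, MCM5, CDK1 and the other genes named were singled out after their values were seen. Each chick is 1 animal with its own number, so no chicks are paired. Sequences of these genes were not used here. In the count table the name of the column of No Lens chick 100 of day 3 carries a suffix, and it was matched by its chick number.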

Additional observations from a re-analysis of the deposited data

Results flagged for a closer look

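CDC45 in the Negative Lens group of day 2 held 1 chick far from the others. Chick 48 was at 4.32 CPM and the other 3 chicks were at 1.6 to 1.93 CPM, so that the gap took a share of 0.88 of the range of the group, above the limit of Dixon's test for 4 chicks. In all 70 groups of 4 chicks were examined over 10 genes, and chance gives such a gap in about 1 of 20.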

How the results depend on the processing

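Of 167 counts of genes called under alternatives that kept all chicks, 165 were 0. With limma-voom the count was 1 for Positive Lens at day 3 against day 2 and 2 for any difference among the 9 groups. Over all genes limma-voom called 10 and 374 there. Leaving out 1 chick at a time gave 0 to 1 calls for Negative Lens against Positive Lens at day 3, and 0 in the other comparisons. The 1 was SMC2 without Positive Lens chick 33, in a fit that called 84 of all genes. The median fold change kept its sign in 354 of 395 settings. For Negative Lens against Positive Lens at day 3 it was −0.53 to −0.27 when 1 chick was left out. For Positive Lens against No Lens at day 3 it was 0.06 to 0.29 when 1 chick was left out. Counts over all genes depended on the tool. In that last comparison they were 101 by edgeR, 549 by DESeq2, 662 by limma-voom and 6 in the fit of all 34 chicks. The paper's own DESeq2 run reported far fewer genes there, so the high DESeq2 count is not shared by that run. As run here, DESeq2 gave no adjusted p for 26 of 30 genes in No Lens at day 3 against day 1 or day 2. The causes were not tested. With 3 or 4 chicks per group and few reads per gene, differences under 2-fold were often not detectable within 1 day.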

Other observations

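The other genes were ranked by how closely their log2 CPM followed the mean of the cell division and replication genes within groups. Among these 11850 genes, 136 were on the pathway lists. Of the 10 with the highest correlation 0 were on those lists, and of the first 30 there were 2. With so few pathway genes among all, 0 of 10 cannot show that they moved apart from the cell division and replication genes. NDUFA5, a subunit of respiratory complex I, had r = 0.67, and FBN1, the fibrillin of elastic microfibrils, had r = 0.66. The 136 pathway genes had a median r of 0.12, beside −0.02 for all 11850. The mean of the genes had r = 0.30 with the fibroblast markers, −0.37 with the markers of retinal progenitor cells and 0.21 with the log2 total count. All these values are over 34 chicks with group means removed, and the points share libraries.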
